A study of Mus musculus with 8 samples.

Results

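Expression of 8 mouse genes that inhibit, carry or respond to Wnt signals was followed in infarcted hearts with and without TIGAR. The genes were chosen by symbol from the 16994 genes of the count table, with earlier results of these data known. A count among them beside the share of all genes is therefore a description and not an independent test. They are the secreted inhibitors Sfrp1, Sfrp2, Frzb, Wif1 and Dkk2, the ligand Wnt9a, and the response genes Axin2 and Wisp2, which the table lists under its newer symbol Ccn5. All 8 were found, and 7 of them passed the filter on low counts (a mean of at least 1 CPM, the count scaled to a common library total), the exception being Dkk2. In the 3 regions of the infarcted hearts Sfrp1, Sfrp2, Frzb and Wisp2 were lower in the knockout library than in the wild-type library. In the left ventricle their ratios lay between 0.902 and 1, and every ratio compares 1 library with 1 other. Over the regions edgeR, the main test, called no genotype difference for these genes, whereas DESeq2 did. Neither called, at the main settings, that the genotype difference of the left ventricle departed from that of the other regions.

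RNA was sequenced from heart tissue of male mice of 2 genotypes, WT and TKO, the latter carrying a whole-body knockout of TIGAR, an enzyme that lowers fructose-2,6-bisphosphate. Myocardial infarction (MI) was made at 16 weeks of age by permanent ligation of the left anterior descending coronary artery. Tissue was taken afterwards from the infarct zone, the border zone beside it and the remote zone away from it. Echocardiography ran to 4 weeks after MI, and the time of tissue collection for RNA is not given in the sources used here. The fourth tissue was left ventricle, and whether those mice had sham surgery is not given in the sources used here. Each genotype and tissue has 1 library, 8 in all, so no group has a replicate. An infarct zone library held RNA pooled from 3 mice. The number behind the other libraries, and whether the 3 zones of a genotype came from the same hearts, are not given in the sources used here. For the TKO line the study's methods refer to an earlier paper, and they give a C57BL/6N origin for its mice with a conditional (floxed) Tigar allele. The whole-body knockout lacks TIGAR in every cell type rather than in cardiomyocytes alone.

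Total counts ran from 27429240 to 33799249 per library. Tigar itself had 1066 to 2215 counts in the WT libraries and 51 to 87 in the TKO libraries, which matches the labels. The infarct zone libraries stood apart from the other 6: their normalisation factors were 1.54 (WT) and 1.26 (TKO) against 0.866 to 0.956, and 20.7% and 27.9% of their counts came from genes of mitochondrial DNA against 36.6% to 39.3%. The summed level of 5 cardiomyocyte markers was 5788 CPM in the WT infarct zone and 12314 CPM in the TKO infarct zone, and between 17970 and 24598 CPM in the other libraries. A ratio between infarct zone and other libraries therefore depends on the scaling. With plain totals in place of TMM (a scaling in which the typical gene is level), the median gene moved by 0.84 (WT) and 0.55 (TKO) on the log2 scale between infarct zone and left ventricle, and by -0.29 between the TKO and WT infarct zones.

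Wnts are secreted lipid-modified proteins that bind Frizzled receptors and the co-receptors Lrp5 and Lrp6. In the canonical branch this spares β-catenin from destruction, and β-catenin then activates genes together with TCF/LEF factors. Secreted Frizzled-related proteins (Sfrp1, Sfrp2 and Frzb, also called Sfrp3) and Wif1 can bind Wnts outside the cell, and Dickkopf proteins such as Dkk2 bind the co-receptors. In the adult heart the pathway is known for low activity that changes after injury, and fibroblasts are a well-known source of secreted Frizzled-related proteins.

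The genes lie at 8 separate loci of the GRCm38 assembly (GENCODE M21 annotation): Sfrp1 at chr8:23411502-23449632 (+), Sfrp2 at chr3:83766321-83774316 (+), Frzb at chr2:80411970-80447625 (−), Wif1 at chr10:121033960-121100650 (+), Dkk2 at chr3:132085292-132180304 (+), Axin2 at chr11:108920349-108950783 (+), Wisp2 at chr2:163820861-163833146 (+) and Wnt9a at chr11:59306928-59333552 (+). Sfrp2 overlaps the antisense gene Gm26771, and Axin2 overlaps the antisense gene Gm11670. Whether counting used strand is not given in the sources used here, so reads of these pairs may not be told apart.

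RefSeq promoters (GRCm38.p6) were found for 6 of the 8 genes, all but Sfrp1 and Wisp2. The 250 bases before the start site are shown for Sfrp2, the gene with the widest range of levels, and for Axin2, the classical target of β-catenin, whose level stayed within a narrow range. Capitals mark matches on either strand to the GC box GGGCGG, the only one of the 3 motifs searched that either window held.
Sfrp2, chr3:83766071-83766320 (+): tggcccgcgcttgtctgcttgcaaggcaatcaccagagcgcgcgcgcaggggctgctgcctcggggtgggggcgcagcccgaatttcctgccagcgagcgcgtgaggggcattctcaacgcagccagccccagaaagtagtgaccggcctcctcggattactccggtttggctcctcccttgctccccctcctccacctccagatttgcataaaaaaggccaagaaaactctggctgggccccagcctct
Axin2, chr11:108920099-108920348 (+): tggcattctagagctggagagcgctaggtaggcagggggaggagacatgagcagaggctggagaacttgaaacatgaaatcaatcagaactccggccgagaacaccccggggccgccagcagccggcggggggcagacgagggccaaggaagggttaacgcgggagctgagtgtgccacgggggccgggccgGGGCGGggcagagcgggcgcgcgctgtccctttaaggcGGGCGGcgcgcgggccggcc
The Axin2 window held 2 GC boxes and the Sfrp2 window held 0. None of the 6 windows held CTTTGAT or CTTTGTT, the core letters that TCF/LEF factors bind, which are in 8.06% of 32851 promoter windows of this length. GGGCGG is in 32.7% of those windows and TATAAA in 12.4%. Wnt9a held 5 GC boxes, Wif1 and Dkk2 held 2 each beside 1 TATAAA, and Frzb held 1 GC box. A missing match says only that these letters are not in this window, and sites further from the start were not searched.

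Levels below are CPM scaled by TMM. They are compared between genes only after division by the length of the merged exons (CPM per kb). In the WT left ventricle the 8 genes lay close together, from 0.167 CPM per kb for Dkk2 to 3.72 CPM per kb for Wisp2. In the WT infarct zone they spread widely: Sfrp2 stood at 241 CPM per kb and Wisp2 at 201, followed by Frzb at 47 and Sfrp1 at 43.5, while Wnt9a was at 3.25, Wif1 at 0.682, Axin2 at 0.614 and Dkk2 at 0.421. The summed CPM of the 8 genes was 47.9 in the WT and 47.2 in the TKO left ventricle, 1266 and 841 in the infarct zones, 291 and 118 in the border zones, and 140 and 70.9 in the remote zones.

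**Figure D1:**
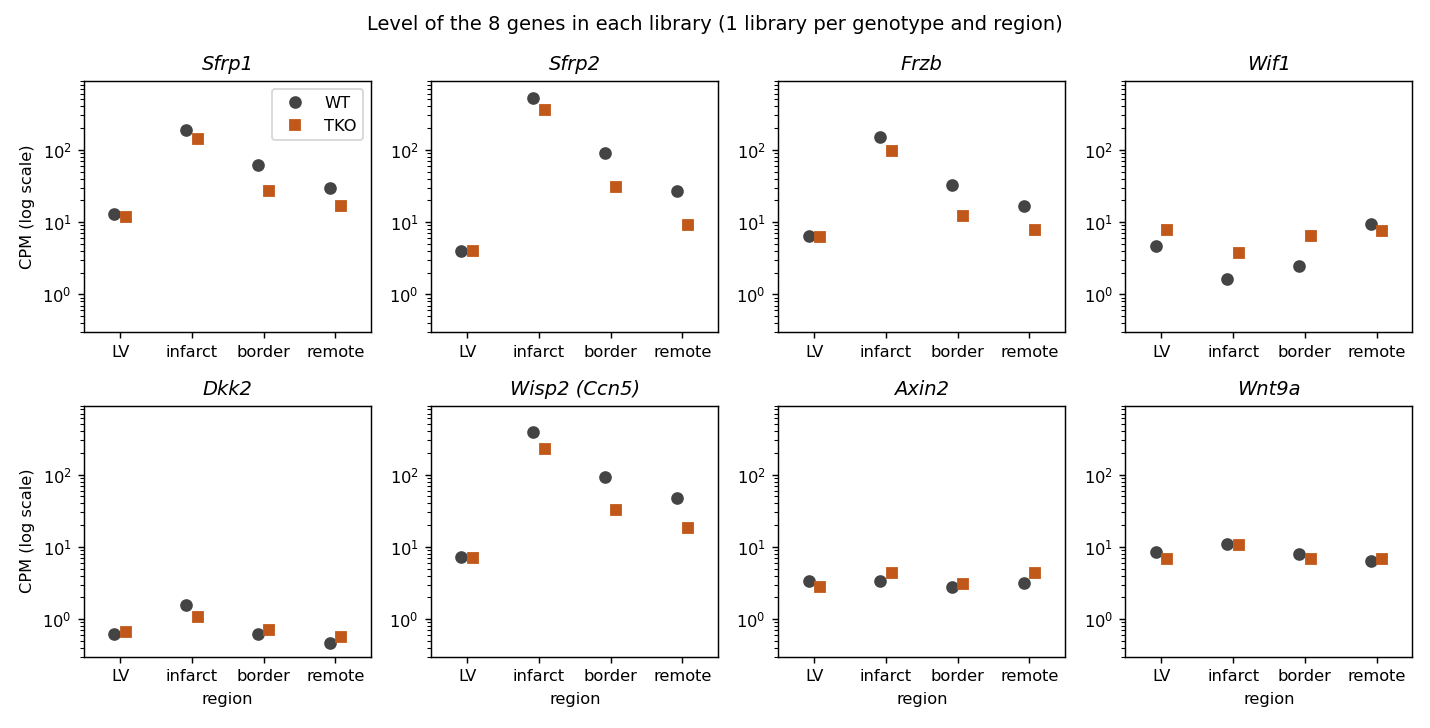
Level of each of the 8 genes in CPM (log scale) in the 4 regions, with circles for WT and squares for TKO and 1 library per point. Sfrp1, Sfrp2, Frzb and Wisp2 are highest in the infarct zone (Sfrp2: 520 CPM in WT and 359 in TKO) and lie lower in TKO than in WT in all 3 zones of the infarcted hearts, whereas Axin2 lies between 2.74 and 4.34 CPM in every library.

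Sfrp2, a secreted Frizzled-related protein, had the widest range. Its level was 4.05 CPM in both left ventricle libraries, 520 CPM in the WT and 359 CPM in the TKO infarct zone, 90.2 and 30.4 CPM in the border zones, and 27 and 9.1 CPM in the remote zones. Every zone of the infarcted hearts was thus above the left ventricle, in the order infarct, border, remote in both genotypes. In WT the infarct zone was 128 times the left ventricle (95% counting interval 107 to 156), the border zone 22.3 times (18.4 to 27.2) and the remote zone 6.66 times (5.46 to 8.2). In TKO the same ratios were 88.5 (73 to 108), 7.51 (6.13 to 9.28) and 2.24 (1.79 to 2.84). These intervals are exact Clopper-Pearson intervals on the 2 counts compared, and they cover counting error only, not the spread between mice.

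Frzb and Sfrp1, the other Frizzled-related proteins, followed the same order at lower amplitude. Frzb was at 6.53 and 6.18 CPM in the WT and TKO left ventricle, 152 and 95.6 CPM in the infarct zones, 33.1 and 12.2 CPM in the border zones, and 16.9 and 7.74 CPM in the remote zones. The WT infarct zone was 23.3 times (20.1 to 27.2) and the TKO infarct zone 15.5 times (13.2 to 18.3) the left ventricle of its genotype. Sfrp1 was at 13.1 and 11.8 CPM in the left ventricle, 190 and 140 CPM in the infarct zones, 62.8 and 26.6 CPM in the border zones, and 30 and 16.6 CPM in the remote zones. Its infarct zone ratios were 14.5 (13.1 to 16.2) in WT and 11.8 (10.5 to 13.3) in TKO. The remote zone of TKO hearts was the nearest to the left ventricle for both genes, at 1.25 times (1.02 to 1.54) for Frzb and 1.41 times (1.22 to 1.63) for Sfrp1.

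Wisp2 (Ccn5), a matricellular protein of the CCN family first found as a Wnt-induced gene, had nearly the profile of Sfrp2. It was at 7.15 and 7.07 CPM in the WT and TKO left ventricle, 386 and 227 CPM in the infarct zones, 91.3 and 31.9 CPM in the border zones, and 47 and 18.2 CPM in the remote zones. Both infarct libraries were the highest and both left ventricle libraries the lowest. The infarct zone over left ventricle ratio was 54 (46.9 to 62.5) in WT and 32.1 (27.7 to 37.4) in TKO, and the border zone ratio was 12.8 (11 to 14.8) in WT and 4.51 (3.85 to 5.32) in TKO.

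Zone differences over both genotypes were tested with edgeR's quasi-likelihood test on all 12999 genes that passed the filter, with region and genotype as terms, 3 residual degrees of freedom and Benjamini-Hochberg adjustment. The spread in that fit is the disagreement of the genotypes and regions, not of replicate mice, and the zones of a genotype may share mice. In the infarct zone 5 of the 7 genes tested were called higher and 1 lower than left ventricle at an adjusted p under 0.05, where 28.2% of all genes were called higher and 28.6% lower. Sfrp2 was higher by 6.73 ± 0.47 (log2 ± SE, adjusted p = 0.000342 by edgeR), Wisp2 (Ccn5) by 5.34 ± 0.39 (adjusted p = 0.000356), Frzb by 4.23 ± 0.32 (adjusted p = 0.000382) and Sfrp1 by 3.70 ± 0.27 (adjusted p = 0.000356). The median over the 7 genes was 3.70 and over all genes tested 0.02. With plain totals as scaling, 87.9% of all calls were higher instead of 49.7%, and the 4 genes kept their direction and their call.

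In the border zone 2 of the 7 were called, both higher, against 0.669% of all genes called higher. They were Sfrp2, by 3.70 ± 0.43 (edgeR adjusted p = 0.0334), and Wisp2 (Ccn5), by 2.92 ± 0.36 (edgeR adjusted p = 0.0352). Sfrp1 missed the threshold at 1.73 ± 0.26 (edgeR adjusted p = 0.0517), as did Frzb at 1.68 ± 0.31 (edgeR adjusted p = 0.073). When the infarct zone libraries were left out, the estimates were 3.68 for Sfrp2 and 2.90 for Wisp2 and neither call held (edgeR adjusted p = 0.0679 and 0.0846). For the remote zone edgeR called 0 of the 7 and 0% of all genes (1378 genes and 4 of the 7 had an unadjusted p under 0.05), whereas DESeq2 called 162 genes, among them Sfrp2 and Wisp2. The remote zone estimates were 2.02 ± 0.36 for Wisp2 and 1.97 ± 0.41 for Sfrp2 on the log2 scale, with edgeR adjusted p = 0.222 and 0.28.

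**Figure D2:**
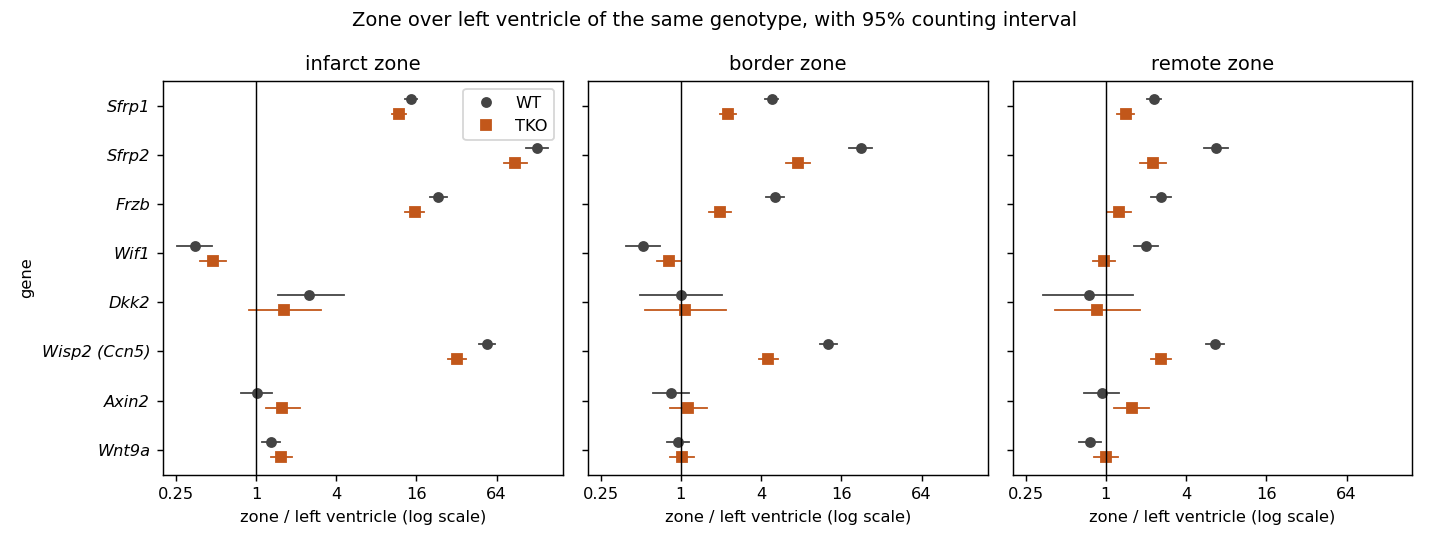
Zone over left ventricle ratio within each genotype (log scale) for the 8 genes, with circles for WT, squares for TKO and lines for 95% counting intervals. Sfrp1, Sfrp2, Frzb and Wisp2 lie right of 1 in all 3 zones with TKO below WT, and Wif1 lies left of 1 in both infarct zones (0.349 in WT and 0.476 in TKO).

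The genotype comparison asks whether loss of TIGAR went with other levels of these genes. In the left ventricle 0 of the 8 genes differed 2-fold or more after a prior count of 2, where 1.98% of all genes tested were 2-fold higher in TKO and 3.62% were 2-fold lower. The TKO over WT ratio there was 1 (0.759 to 1.32) for Sfrp2, 0.988 (0.803 to 1.21) for Wisp2 (Ccn5), 0.946 (0.759 to 1.18) for Frzb and 0.902 (0.772 to 1.05) for Sfrp1. All 4 intervals hold 1, so no difference was detectable at this depth.

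In the border zone 4 of the 8 genes were 2-fold lower in TKO and 1 was 2-fold higher, where 3.26% of all genes were lower and 1.23% higher. Here and in the other comparisons the genes had been chosen with earlier results of these data known. Shares of all genes are thus given as a description and not as a test. Sfrp2 was at 0.337 of WT (0.313 to 0.364), from 2780 counts in WT and 903 in TKO. Wisp2 (Ccn5) was at 0.349 (0.324 to 0.376), Frzb at 0.368 (0.325 to 0.415) and Sfrp1 at 0.423 (0.389 to 0.46). The gene that was higher was Wif1. Across the 7 genes the median log2 ratio in the border zone was -1.24.

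Remote from the infarct, Sfrp2, Wisp2 and Frzb were 2-fold lower in TKO and 0 were 2-fold higher, where 2.39% of all genes were lower and 1.17% higher. The ratios were 0.337 (0.293 to 0.387) for Sfrp2, 0.387 (0.35 to 0.427) for Wisp2 (Ccn5) and 0.458 (0.391 to 0.536) for Frzb. Sfrp1 stayed inside the 2-fold limit at 0.554 (0.496 to 0.618).

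In the infarct zone the 4 genes were also lower in TKO, with ratios nearer to 1 than in the border zone. Wisp2 (Ccn5) was at 0.587 of WT (0.572 to 0.603), Frzb at 0.629 (0.603 to 0.655), Sfrp2 at 0.69 (0.675 to 0.705) and Sfrp1 at 0.735 (0.709 to 0.762). None was 2-fold lower, and the 1 gene of the 8 that was 2-fold higher was again Wif1, where 1.43% of all genes were lower and 2.4% higher. With plain totals the same ratios were 0.479, 0.513, 0.563 and 0.599, so Wisp2 passed the 2-fold limit, and Wif1 fell inside it at 1.85.

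**Figure D3:**
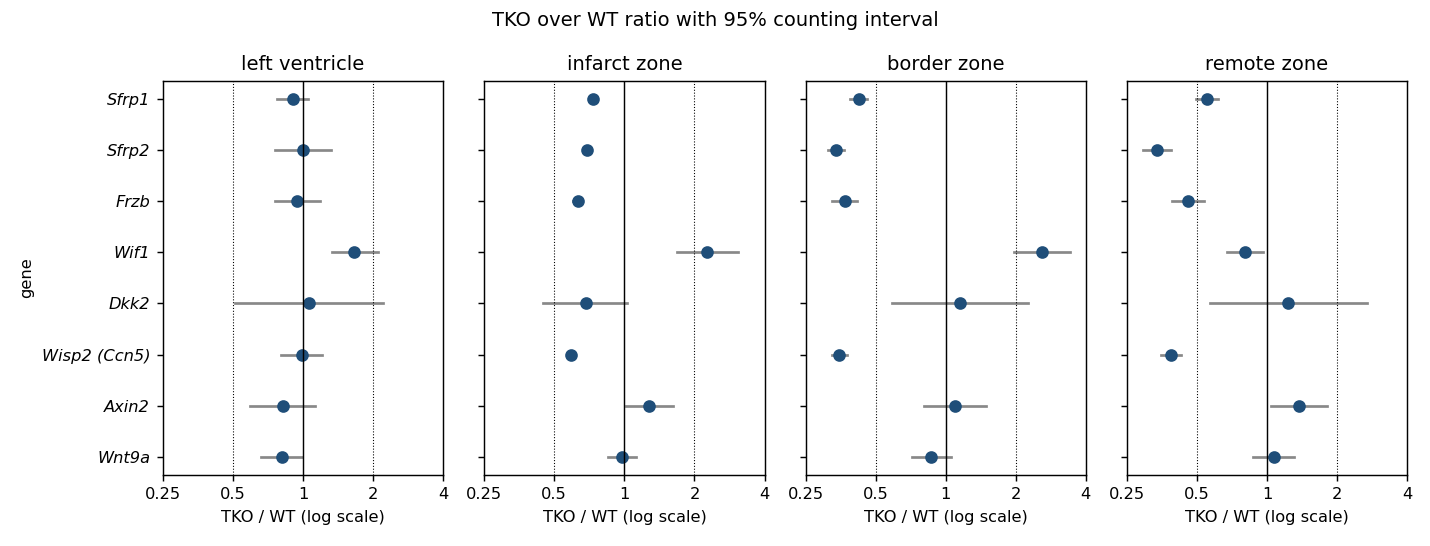
TKO over WT ratio of each of the 8 genes (log scale) in the 4 regions, with dots for the ratio and lines for its 95% counting interval. Dotted lines mark 2-fold. Sfrp1, Sfrp2, Frzb and Wisp2 sit near 1 in the left ventricle and at 0.337 to 0.423 in the border zone, and Wif1 sits on the other side in the left ventricle (1.66), infarct zone (2.27) and border zone (2.58).

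Over the 4 regions together, with region as a block, edgeR called 0 of the 7 genes and 0.138% of all genes (18 of 12999) for genotype. Regions stand in for replicates here, and where they share mice they are not independent. Of the 7 genes, 5 had an unadjusted p under 0.05, as did 2109 of all genes. The log2 differences were -0.98 ± 0.27 for Sfrp2 (edgeR adjusted p = 0.213), -0.96 ± 0.24 for Wisp2 (Ccn5) (adjusted p = 0.195), -0.86 ± 0.21 for Frzb (adjusted p = 0.191) and -0.68 ± 0.18 for Sfrp1 (adjusted p = 0.199). DESeq2 on the same counts called these 4 genes among 342, with adjusted p between 0.00621 and 0.0215. Of the genes edgeR called, 55.6% were higher in TKO, against 21.4% with plain totals. The median over the 7 genes was -0.68 and over all genes -0.00.

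Whether the left ventricle differed from the infarcted regions in its genotype difference was tested by 1 interaction term at a time. No such term was called for any of the 7 genes, where edgeR called 0.646% of all genes for the left ventricle, 0.00769% for the infarct zone, 0% for the border zone and 0% for the remote zone. The left ventricle term was 1.19 ± 0.36 for Wisp2 (Ccn5) (edgeR adjusted p = 0.207), 0.97 ± 0.35 for Frzb (adjusted p = 0.265), 1.20 ± 0.55 for Sfrp2 (adjusted p = 0.35) and 0.69 ± 0.33 for Sfrp1 (adjusted p = 0.37). In simulated data an interaction term, run for the infarct zone, was called for only 9% of genes given a log2 change of 1. A missing call at this size therefore does not show that the regions were alike. At an unadjusted p under 0.05 the counts over all genes were 2179, 1018, 196 and 223 in that order, with 2, 0, 0 and 1 of the 7 genes among them. DESeq2 called 280, 288, 7 and 12 genes and none of the 7, though it gave no adjusted p for 4 of the 7 infarct zone terms. With plain totals edgeR called the left ventricle term of Wisp2 (adjusted p = 0.0399). Leaving out the left ventricle libraries raised the genotype calls to 83 genes, again without any of the 7.

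Wif1, a secreted protein that binds Wnts directly, ran the other way. It was at 4.74 CPM in the WT and 7.88 CPM in the TKO left ventricle, 1.65 and 3.75 CPM in the infarct zones, 2.47 and 6.37 CPM in the border zones, and 9.5 and 7.61 CPM in the remote zones. The WT infarct library was the lowest and the WT remote library the highest. TKO exceeded WT by 1.66 times (1.33 to 2.09) in the left ventricle, 2.27 times (1.68 to 3.07) in the infarct zone and 2.58 times (1.97 to 3.42) in the border zone. Only the remote zone pair had the opposite order, at 0.801 of WT (0.67 to 0.956).

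Over both genotypes Wif1 was lower in the infarct zone than in the left ventricle by -1.27 ± 0.41 on the log2 scale (edgeR adjusted p = 0.0371), the 1 of the 7 genes called lower there. With plain totals the estimate was -0.60 and the call was lost (edgeR adjusted p = 0.181). The genotype difference over regions was 0.72 ± 0.29 (edgeR adjusted p = 0.301). The remote zone departed from the other regions by -1.41 ± 0.37 with an unadjusted p of 0.0123, and the edgeR adjusted p was 1. Within WT the remote zone stood at 2 times the left ventricle (1.62 to 2.48), and within TKO at 0.966 times (0.796 to 1.17).

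Dkk2, a Dickkopf protein that binds the Lrp co-receptors, was near the detection limit. It had 17 counts in each left ventricle library, 66 and 38 in the WT and TKO infarct zones, 19 and 21 in the border zones, and 14 and 17 in the remote zones, where 3 counts mark the floor. Its level was between 0.46 and 1.56 CPM, with both infarct libraries above the other 6. The interval of the TKO over WT ratio held 1 in all 4 regions, with ratios of 1.06, 0.681, 1.15 and 1.23 in left ventricle, infarct, border and remote zone. In WT the infarct zone was 2.51 times (1.46 to 4.57) the left ventricle. In a fit without the filter on low counts the infarct zone estimate was 0.97 ± 0.43 (edgeR adjusted p = 0.111) and the genotype estimate -0.01 ± 0.33 (edgeR adjusted p = 0.996).

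Wnt9a was the one ligand followed here. It was at 8.39 and 6.8 CPM in the WT and TKO left ventricle, 10.8 and 10.5 CPM in the infarct zones, 7.95 and 6.88 CPM in the border zones, and 6.38 and 6.81 CPM in the remote zones. The infarct libraries were the highest of each genotype, and the genotypes otherwise overlapped. It was called higher in the infarct zone by 0.50 ± 0.15 on the log2 scale (edgeR adjusted p = 0.0318), a call that DESeq2 (adjusted p = 0.051) and the fit without the filter (edgeR adjusted p = 0.0571) did not make. With plain totals the estimate was 1.18 and was called (edgeR adjusted p = 0.00105). TKO over WT was 0.81 (0.662 to 0.99) in the left ventricle, 0.974 (0.848 to 1.12) in the infarct zone, 0.865 (0.715 to 1.05) in the border zone and 1.07 (0.873 to 1.31) in the remote zone. The genotype estimate was -0.11 ± 0.11 (edgeR adjusted p = 0.623).

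Axin2, a scaffold of the β-catenin destruction complex whose transcription is widely used as a readout of canonical Wnt signalling, had the narrowest range of the 8 genes. It was at 3.36 and 2.74 CPM in the WT and TKO left ventricle, 3.38 and 4.34 CPM in the infarct zones, 2.82 and 3.1 CPM in the border zones, and 3.12 and 4.28 CPM in the remote zones. The TKO infarct and remote libraries were the highest and the TKO left ventricle library the lowest. TKO over WT was 0.817 (0.591 to 1.13) in the left ventricle, 1.28 (1.02 to 1.62) in the infarct zone, 1.1 (0.81 to 1.49) in the border zone and 1.37 (1.04 to 1.81) in the remote zone. With plain totals the infarct ratio was 1.05.

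With TMM scaling edgeR did not call Axin2 in any comparison. The genotype estimate was 0.17 ± 0.19 (edgeR adjusted p = 0.663) and the infarct zone estimate 0.32 ± 0.26 (edgeR adjusted p = 0.328). With plain totals the infarct zone estimate was 1.01 and was called (edgeR adjusted p = 0.0152), so the call depends on the scaling. Within WT the infarct zone was 1.01 times the left ventricle (0.769 to 1.32), and within TKO 1.58 times (1.19 to 2.13). Axin2 and Wisp2, both known as Wnt-responsive, thus had unlike profiles in these libraries.

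The make-up of the inhibitor transcripts differed between regions. Among 14 secreted Wnt inhibitors in the table, Igfbp4, a growth factor-binding protein that can also block Frizzled, took 59.6% of the summed CPM per kb in the WT and 56.1% in the TKO left ventricle, and Sfrp2 took 5.52% and 5.2%. In the infarct zone Sfrp2 took 45.9% in WT and 45.4% in TKO. In the border zone its share was 34% in WT and 21.8% in TKO, and in the remote zone 14% and 8.32%. Wif1 took 0.13% in the WT infarct zone, the lowest of its 8 shares, and 8.97% in the TKO left ventricle, the highest. With 1 library per group these shares have no replicate check.

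**Figure D4:**
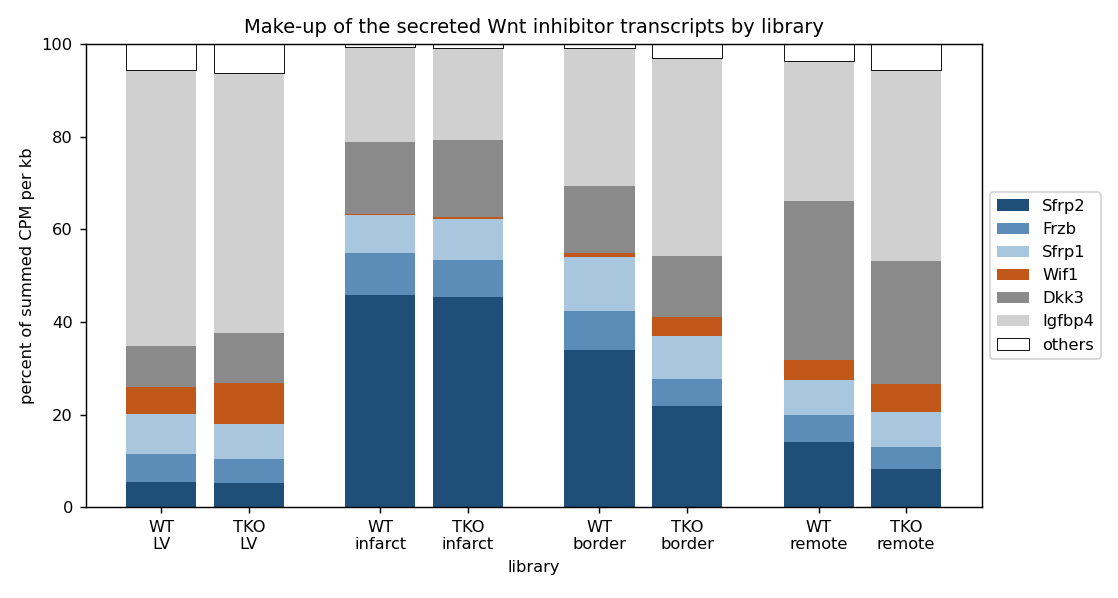
Share of each gene in the summed CPM per kb of 14 secreted Wnt inhibitors, as stacked bars of percent for the 8 libraries; "others" holds the 8 genes not named in the key. Sfrp2 goes from 5.52% in the WT left ventricle to 45.9% in the WT infarct zone, and in the border zone it takes 34% in WT and 21.8% in TKO.

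The rest of the pathway was read from 8 gene lists, with 86 of 96 listed genes in the table and 63 past the filter. The lists too were written with earlier results of these data known. For genotype edgeR called 0 genes in every list, whereas DESeq2 called Sfrp1, Sfrp2 and Frzb among the inhibitors and Wisp2 in the CCN family, all lower in TKO. Infarct zone counts are given under both scalings. For the infarct zone all 8 inhibitors tested were called, 6 higher and 2 lower, against 28.2% and 28.6% of all genes, and with plain totals 6 higher and 1 lower. Beside the genes above these were Dkk3 (4.31 ± 0.40, edgeR adjusted p = 0.000683), Igfbp4 (2.12 ± 0.16, adjusted p = 0.000421) and Sost (2.06 ± 0.61, adjusted p = 0.027), all higher on the log2 scale, and Sfrp5 (-2.86 ± 0.61, adjusted p = 0.0082), a Frizzled-related protein that fell together with Wif1. Sfrp5 lies outside the rule for named genes and is given because of its values, on 4 to 83 counts a library.

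Dkk3, a Dickkopf relative, was lower in TKO in the 3 zones of the infarcted hearts and higher in the left ventricle. Its TKO over WT ratios were 1.29 (1.1 to 1.52) in the left ventricle, 0.751 (0.729 to 0.773) in the infarct zone, 0.481 (0.443 to 0.522) in the border zone and 0.439 (0.412 to 0.468) in the remote zone. Igfbp4 was at 0.998 (0.942 to 1.06), 0.678 (0.662 to 0.693), 0.755 (0.723 to 0.788) and 0.774 (0.736 to 0.813) of WT in the same order. The border zone ratio of Igfbp4 lay nearer to 1 than those of Sfrp1, Sfrp2, Frzb and Wisp2, whose intervals do not reach it.

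Of 6 Wnt ligands tested, 4 were called higher in the infarct zone and 0 lower, against 28.2% and 28.6% of all genes, and with plain totals 5 higher. Beside Wnt9a they were Wnt11 (0.74 ± 0.17, edgeR adjusted p = 0.0104), Wnt5a (0.48 ± 0.15, adjusted p = 0.0324) and Wnt4, which lies outside the rule and is named because it completes the count (1.83 ± 0.49, adjusted p = 0.0195). The Wnt5a call, like that of Wnt9a, was lost with DESeq2 (adjusted p = 0.0545) and without the filter (edgeR adjusted p = 0.0601). Wnt5b was at -0.16 ± 0.20 (edgeR adjusted p = 0.527). Both ligand-processing genes, the carrier Wls (0.77 ± 0.12) and the acyltransferase Porcn (0.59 ± 0.20), were called higher. The Porcn call was lost with DESeq2 (adjusted p = 0.0625) and without the filter (edgeR adjusted p = 0.0692). Of 15 receptors and co-receptors 10 were called higher and 1 lower, the lower being Kremen1, a Dickkopf receptor (-0.94 ± 0.18, edgeR adjusted p = 0.00552), whereas plain totals called 13 higher and 0 lower, with Kremen1 at -0.27. Lrp5 was called at 0.28 ± 0.10 and Fzd4 was not, at 0.41 ± 0.33. Without the filter the Lrp5 call was lost (edgeR adjusted p = 0.13).

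Of 15 genes of the cytoplasmic and nuclear machinery, 4 were called higher and 3 lower in the infarct zone, against 28.2% and 28.6% of all genes, with a median of 0.13 on the log2 scale. With plain totals 12 were called higher and 0 lower. β-Catenin itself (Ctnnb1) was at -0.07 ± 0.13 (edgeR adjusted p = 0.679), and with plain totals at 0.61 and called (edgeR adjusted p = 0.00405). Its kinase Csnk1a1 was at -0.19 ± 0.12 (edgeR adjusted p = 0.213) and with plain totals at 0.49 (edgeR adjusted p = 0.0156), and Gsk3a was called at -0.53 ± 0.10 (edgeR adjusted p = 0.00591) but turned to 0.16 with plain totals.

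Of 4 genes of the R-spondin axis, which controls receptor turnover, 1 was called higher and 2 lower, against 3 higher and 1 lower with plain totals. The receptor Lgr6 was at -1.17 ± 0.12, Lgr4 was called at -0.29 ± 0.10 but turned to 0.40 with plain totals, and Znrf3 was at -0.02 ± 0.19 and at 0.67 with plain totals.

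Of 10 Wnt response genes tested, 3 were called higher in the infarct zone and 1 lower, near the shares of all genes (28.2% and 28.6%), and 9 higher and 1 lower with plain totals. Nkd2, which restrains Dishevelled, was higher by 3.87 ± 0.29 (edgeR adjusted p = 0.000364), and TKO over WT ratios of 1.06 (0.704 to 1.59), 0.606 (0.556 to 0.662), 0.43 (0.348 to 0.528) and 0.653 (0.497 to 0.853) stood in left ventricle, infarct, border and remote zone. The other genes called were Nkd1 (2.39 ± 0.28), Apcdd1 (2.19 ± 0.32) and, lower, Tnfrsf19 (-1.69 ± 0.34), named after their values were seen. Ccnd1 (0.00 ± 0.09, edgeR adjusted p = 0.998) and Bambi (0.23 ± 0.19, adjusted p = 0.335) were not called, but both were with plain totals, at 0.69 and 0.91, as was Axin2.

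All 5 CCN genes tested were called higher in the infarct zone, against 28.2% of all genes, also with plain totals, and Wisp2 had the highest estimate. Ccn2, known as CTGF, was at 2.93 ± 0.35 (edgeR adjusted p = 0.00136), Ccn3 at 2.33 ± 0.22 (adjusted p = 0.000704) and Ccn1 at 1.02 ± 0.14 (adjusted p = 0.00179). The TKO over WT ratios of Ccn2 were 1.25 (1.18 to 1.31), 0.846 (0.833 to 0.859), 0.474 (0.457 to 0.491) and 0.544 (0.521 to 0.569) in the same order of regions. In the border zone Wisp2 was the 1 CCN gene called and Sfrp2 the 1 inhibitor called, and 0 genes of the other 6 lists were called, against 0.669% of all genes called higher. Neither of these calls held without the infarct zone libraries.

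Markers of cell types moved between the same libraries, and in bulk tissue fewer cells of a type and less RNA per cell cannot be told apart. The summed level of 7 fibroblast markers was 1797 and 1770 CPM in the WT and TKO left ventricle, 8001 and 6978 CPM in the infarct zones, 2855 and 2303 CPM in the border zones, and 2317 and 2002 CPM in the remote zones. The TKO over WT ratio of that sum was 0.985, 0.872, 0.807 and 0.864 in this order, with 7, 6 and 7 of the 7 markers lower in TKO in the infarct, border and remote zones. Gsn was the largest part of the border zone sums (1133 CPM in WT and 1196 CPM in TKO) and was not lower in TKO there. The median log2 ratio of the 7 markers, in which Gsn weighs no more than the others, was 0.16, -0.32, -0.55 and -0.42 in the same order. For 5 markers of activated fibroblasts the ratios were 0.834, 0.792, 0.552 and 0.617, with 5, 5, 3 and 4 of the 5 lower in TKO. Postn made up most of the border zone sum (450 CPM in WT and 151 in TKO), while Fn1 was higher in TKO there (3.33 times, 3.01 to 3.69) and in the remote zone (3.21 times, 2.86 to 3.62). For 6 markers of matrifibrocyte and cartilage-like cells, which include Comp, they were 0.798, 0.728, 0.348 and 0.421, and for 5 valve and tendon-like markers 0.786, 0.736, 0.427 and 0.701. The part of these shifts in the ratios of Sfrp1, Sfrp2, Frzb and Wisp2 was not tested.

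Of the other lists, the 5 cardiomyocyte markers summed to 2.13 times WT in the TKO infarct zone, 1.27 times in the border zone and 1.2 times in the remote zone, with all 5 higher in each. Macrophage and leukocyte markers, 4 in number, were at 0.737 to 0.814 of WT in all 4 regions, so their sum was lower in TKO in the left ventricle too. The 4 endothelial markers were at 0.955 to 1.22. The 4 atrial markers summed to 1.59 times WT in the left ventricle and to 0.687, 0.286 and 0.277 of WT in the infarct, border and remote zones, below 1 in the same zones as the 4 genes. Most of that sum was Nppa (2987 of 3045 CPM in the WT infarct zone and 1674 of 1725 CPM in the WT border zone). The other 3 atrial markers were further apart in the infarct zone, with Sln at 0.0394, Myl4 at 0.143 and Myl7 at 0.0763 of WT. These 3 had their highest levels in the remote zone. There Sln, Myl4 and Myl7 were at 80.9, 279 and 172 CPM in WT and 24.4, 110 and 67.5 CPM in TKO. In the left ventricle they were at 1.13, 8.94 and 5.55 CPM in WT and 1.89, 11.5 and 5.87 CPM in TKO. The part of this atrial signal in the remote zone ratios was not tested. The 4 epicardial and mesothelial markers summed to 10.6 and 3.98 CPM in the WT and TKO left ventricle, 58.7 and 38.1 CPM in the infarct zones, 10.9 and 10.7 CPM in the border zones, and 14.6 and 6.97 CPM in the remote zones, with TKO over WT at 0.376, 0.648, 0.977 and 0.479. Their part in the results was not tested either. Wif1 was higher in TKO in the infarct and border zones, where the fibroblast sums were lower. In the remote zone both were lower in TKO, with the fibroblast sum at 0.864 of WT. In the left ventricle Wif1 was higher in TKO and the sum was at 0.985 of WT. The part of cell types in the Wif1 ratios was not tested.

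The genes with the profile most like each member's were found by Pearson correlation of log2 CPM over the 8 libraries, given as a description because all points share the contrast of infarct zone to the rest. For Sfrp2 the closest was Comp, a cartilage matrix protein, with r = 0.9994, followed by Ltbp2 (0.9974) and Pamr1 (0.9972). For Sfrp1 they were Col5a2 (0.9988), Bgn (0.9980) and Igfbp6 (0.9975), and for Frzb Bgn (0.9984), Tgfbi (0.9983) and Pdpn (0.9979). For Wisp2 they were Mefv (0.9975), Cilp2 (0.9960) and Pcdhb9 (0.9960). Comp had 53811 and 30128 counts in the WT and TKO infarct zones and 323 and 293 in the left ventricle, so its span of levels was close to that of Sfrp2.

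The closest partners of the remaining members had lower correlations. Wif1 was closest to Smim27 (0.9717), with Fam181b (0.9631) also among its nearest genes, Axin2 was closest to Wiz (0.9488), 1700019D03Rik (0.9126) and Olfr558 (0.9057), Dkk2 to Stx16 (0.9914), Pard6b (0.9904) and Dennd11 (0.9892), and Wnt9a to Grk4 (0.9930), Gm21897 (0.9930) and Usp17la (0.9901). Among the 8 genes themselves Sfrp1 and Frzb had r = 0.997 and Sfrp2 and Wisp2 r = 0.993, while Wif1 was at -0.784 with Sfrp1 and Axin2 at 0.263 with Sfrp1.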

How the data were processed

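RNA-seq of 8 mouse heart libraries was analysed from 1 deposited table. The values are estimated counts per gene, which the authors made with Trim Galore 0.6.5 and kallisto 0.46 on mm10 (from the submitters' processing notes, which also list edgeR 3.34.1), and the deposited numbers are whole. Groups were taken from the labels' genotype and tissue. All 8 columns were mapped by name.

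Fits used edgeR 4.0.16 in R 4.3.3 (TMM, quasi-likelihood F test, Benjamini-Hochberg adjustment over 12999 genes of the 16964 with a count, mean CPM of at least 1, threshold 0.05). SE is the log2 estimate over the root of its F value. Terms were region and genotype, plus 1 interaction at a time, with 3 and 2 residual degrees of freedom. Regions and genotypes stand in for replicates, so p-values bear on these libraries and not on mice. Ratios of 2 libraries have no test and carry exact 95% intervals on the counts, and the 2-fold counts add a prior count of 2 (floor of 3 counts). The procedure was tested on simulated data with 100 genes changed at each size and 12799 unchanged. The changed genes were drawn only from those above a count minimum, and no other differences between zones were put in. The recovery need therefore not hold for the real libraries. Of genes given a log2 change of 1, 80% were called for genotype, 65% for the infarct zone and 9% for its interaction term. At a log2 change of 2 these were 97%, 95% and 78%. Unchanged genes called numbered 21, 12 and 16 in that order, each a larger share of the calls made than the threshold of 0.05 aims at. Alternatives were DESeq2 1.42.0, plain totals, totals without mitochondrial DNA-encoded genes, other count filters, a prior count in the ratios, and libraries left out. The border and remote zone fits without the infarct zone libraries were added after seeing the data.

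Beside the 8 genes and Tigar, the text names up to 3 genes of highest mean CPM per pathway list, those that edgeR called for genotype (none were), and the 3 most correlated genes per member, 1 of which is not reported here. Members and lists were chosen with earlier results of these data known. Gene lengths and positions are from GENCODE M21 and promoters from RefSeq.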

Additional observations from a re-analysis of the deposited data

How the results depend on the processing

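No called test or ratio of the 8 genes changed direction under the alternatives run for them. Of the pathway genes, 3 called in the infarct zone turned with plain totals (Gsk3a, Lgr4 and Bcl9, the last at -0.53 and 0.16). Kremen1, Pygo1 and Wif1 lost their infarct zone call there. DESeq2 lost the infarct zone calls of Apc, Lgr4, Porcn, Wnt5a and Wnt9a. The fit with no filter lost those of Apc, Lrp5, Lrp6, Porcn, Wnt5a and Wnt9a, and the filter of at least 10 counts lost that of Lgr4. Other infarct zone calls were gained, among them Ctnnb1 and Axin2 with plain totals. DESeq2 size factors, the mitochondrial setting and a prior count left all 80 ratios of the 8 genes within their intervals, while plain totals moved 19 of 80, all in comparisons with an infarct zone library. Genes called for genotype numbered 18 and became 342 with DESeq2 (4 of the 8 genes, from 0) and 56 with plain totals, and 3 to 83 when 1 region was left out (3 without the remote zone, 5 without the border zone, 6 without the infarct zone and 83 without the left ventricle). Border zone calls went from 93 to 576 with DESeq2 (members from 2 to 4), 200 with plain totals (members 4) and 6 without the infarct zone libraries (members 0). Remote zone calls went from 0 to 162 with DESeq2 (members 2), 18 with plain totals, 3 with no filter, 3 with at least 10 counts in every library and 1 without the infarct zone libraries. Interaction calls for the left ventricle went from 84 to 280 with DESeq2, 275 with plain totals (members from 0 to 1, Wisp2, edgeR adjusted p = 0.0399) and 140 with at least 10 counts. For the infarct zone they went from 1 to 288 with DESeq2 and 0 with at least 10 counts, for the border zone from 0 to 7 with DESeq2 and 5 with plain totals, and for the remote zone from 0 to 12 with DESeq2. DESeq2 gave no adjusted p for 4 of the member tests of the infarct zone interaction (Frzb, Wif1, Axin2 and Wnt9a). The cause of these moves was not tested. The genotype fit pairs WT and TKO by region. No further paired analysis by replicate number was run, as the labels give no such numbers. Depth limits the Dkk2 ratios, whose intervals are the widest of the 8 genes.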
